A study of Homo sapiens with 4 samples.

Results

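The 10 genes described here regulate the balance between epithelial and mesenchymal states. They are the 6 factors that drive the epithelial to mesenchymal transition (EMT), SNAI1, SNAI2, TWIST1, TWIST2, ZEB1 and ZEB2, and 4 regulators that hold the epithelial state, ESRP1, ESRP2, OVOL1 and GRHL2. They were taken by gene symbol from the tables of 43622 genes, and all 10 symbols were found. The RNA came from A549 and H1993 (NCI-H1993), both human lung adenocarcinoma cell lines, and each line was grown attached to the dish (adherent) or as floating spheroids, which the series treats as cultures rich in cancer stem cells. There was 1 mRNA library for each of the 4 groups, namely H1993 spheroids, H1993 adherent cells, A549 spheroids and A549 adherent cells, with no other agent or genotype named in their labels.

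In an epithelial to mesenchymal transition, cells lose tight junctions and polarity and gain filaments, matrix and motility. SNAI, TWIST and ZEB proteins repress epithelial genes, the SNAI and ZEB proteins by binding E-box sequences in their promoters. GRHL2 activates such genes, OVOL1 and GRHL2 repress ZEB1, ESRP1 and ESRP2 direct the epithelial splice forms of many mRNAs, and the miR-200 microRNAs and the ZEB factors repress each other. In lung cancer lines the level of ZEB1 and of its epithelial opponents is a common way to place a line between these states.

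Total exon reads per library ran between 15331121 and 17681746, so 3 reads are worth between 0.170 and 0.196 CPM (reads scaled to library size). With 1 library per group there was no replicate check and no p-value for a pair of libraries. The intervals below are exact 95% intervals of the read counts (Clopper-Pearson for a ratio or a share). They cover counting error only, since PCR copies cannot be told from separate molecules. A gene was called higher or lower when its fold on library sizes scaled by TMM (trimmed mean of M values) was at least 2 and this interval excluded no change. Log2 folds carry a prior count of 2 reads. In bulk RNA, fewer cells of a type and less RNA per cell cannot be told apart.

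The library labelled H1993 adherent resembled A549 adherent cells more than it resembled H1993 spheroids. Of 14759 autosomal genes, 13.2% stood at least 2-fold apart when it was set against A549 adherent cells, 35.6% when H1993 spheroids were set against it, and 23.6% when A549 spheroids were set against A549 adherent cells. The origin of this library was not tested, and it is named below as the library labelled H1993 adherent. The ratio of H1993 spheroids to A549 spheroids does not use its reads, though scaling and the filter on low counts come from all 4 libraries. Marker levels are given in the order H1993 spheroids, the library labelled H1993 adherent, A549 spheroids and A549 adherent cells. Lung epithelial markers (11 genes) summed to 10211, 3167, 4151 and 8351 TPM (reads scaled to exon length and library). Among them the keratin genes KRT7, KRT8 and KRT18 were abundant in all 4 libraries, with 32265 to 82350 reads on KRT8. Others differed more, with KRT19 at 28510, 666, 5351 and 1311 reads and EPCAM at 4716, 266, 308 and 413. FOXA2 went the other way in H1993, at 89, 745, 664 and 424. The surfactant genes SFTPB and SFTPC had between 0 and 2 reads. Fibroblast markers (9 genes) summed to 19.6, 36.5, 28.0 and 9.52 TPM. Among them LUM had 35, 339, 320 and 24 reads and COL1A1 592, 286, 261 and 147 in the same order, while COL1A2 had between 0 and 3. Endothelial markers (5 genes) summed to 2.60, 1.47, 3.34 and 0.502 TPM in that order, with PECAM1 at 36, 7, 129 and 2 reads. Blood cell markers (6 genes) summed to 5.63, 22.7, 5.76 and 9.45 TPM. Of these, CD14 had 29, 214, 53 and 74 reads, PTPRC had 45 in H1993 spheroids and 0 in the others, and HBB had 0 in all. Their part in the results below was not tested.

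The mature miR-200 microRNAs are shown because ZEB1 and ZEB2 are their known targets and because the host transcript of 2 of them was measured here. Their letters are from RefSeq (GRCh38.p14), with the seed (bases 2 to 8) in capitals. The first 3 share one seed and the last 2 share another.
hsa-miR-200b-3p: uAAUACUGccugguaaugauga
hsa-miR-200c-3p: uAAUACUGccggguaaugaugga
hsa-miR-429: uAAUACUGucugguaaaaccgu
hsa-miR-200a-3p: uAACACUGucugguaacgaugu
hsa-miR-141-3p: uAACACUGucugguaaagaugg
Matches to these seeds are CAGTATT and CAGTGTT. In the longest 3′ untranslated region (UTR) of each coding gene in GENCODE release 29, searched on the transcript strand, ZEB1 held 9 matches in 2549 bases (6 CAGTATT and 3 CAGTGTT) and ZEB2 held 9 in 5370 bases (5 and 4). Of 19146 such regions 28.2% held at least 1 match and 6 held at least 9, so ZEB1 and ZEB2 were 2 of 6. Of regions within 20% of the same length, 46.5% held a match for ZEB1 and 72.2% for ZEB2. ESRP1 held 2 matches, SNAI2 and GRHL2 held 1 each, and SNAI1, TWIST1, TWIST2, ESRP2 and OVOL1 held 0. A few of the matches in the ZEB genes, with the match in capitals, show both kinds.
ZEB1 site 1, chr10:31527612-31527640, plus strand: tctggcattgttttatcttatCAGTATTa
ZEB1 site 6, chr10:31528556-31528584, plus strand: actgtatgtcttcaaacctggCAGTATTa
ZEB1 site 8, chr10:31529016-31529044, plus strand: attaggattaacttctataaaCAGTGTTg
ZEB2 site 2, chr2:144389052-144389080, minus strand: ggtgcccgcactaccatacatCAGTATTt
ZEB2 site 5, chr2:144388669-144388697, minus strand: gggttacctttgcaccagcttCAGTGTTa
Such a match is a description of these letters and not a measured site.

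MIR200CHG, the host transcript of MIR200C and MIR141, had 59 exon reads in H1993 spheroids, 1 in the library labelled H1993 adherent, 0 in A549 spheroids and 0 in A549 adherent cells. Only H1993 spheroids were above the floor of 3 reads. Against the 0 reads of A549 spheroids, the 95% interval of its log2 ratio in H1993 spheroids started at 4.07 and had no upper end. Its ratio to the library labelled H1993 adherent was 6.07 on the log2 scale (3.53 to 11.39, 1 read in the denominator). MIR200CHG was below the filter on low counts and is not among the called genes. An mRNA library does not measure mature microRNAs.

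Promoters from RefSeq (GRCh38.p14), from 250 bases before to 50 after a start, are printed for MIR200CHG and for CLDN7 (a tight junction claudin) and RAB25 (a GTPase of epithelial recycling endosomes), epithelial genes chosen after their values were seen. The E-box forms CACCTG and CAGGTG, which are each other's reverse complement, are in capitals.
MIR200CHG promoter, chr12:6962995-6963294, plus strand: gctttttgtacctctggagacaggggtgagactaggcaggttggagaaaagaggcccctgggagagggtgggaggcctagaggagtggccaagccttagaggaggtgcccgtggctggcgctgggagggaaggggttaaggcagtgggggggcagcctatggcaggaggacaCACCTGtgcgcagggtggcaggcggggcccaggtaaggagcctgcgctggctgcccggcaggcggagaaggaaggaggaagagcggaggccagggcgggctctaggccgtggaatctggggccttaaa
CLDN7 promoter, chr17:7262429-7262728, minus strand: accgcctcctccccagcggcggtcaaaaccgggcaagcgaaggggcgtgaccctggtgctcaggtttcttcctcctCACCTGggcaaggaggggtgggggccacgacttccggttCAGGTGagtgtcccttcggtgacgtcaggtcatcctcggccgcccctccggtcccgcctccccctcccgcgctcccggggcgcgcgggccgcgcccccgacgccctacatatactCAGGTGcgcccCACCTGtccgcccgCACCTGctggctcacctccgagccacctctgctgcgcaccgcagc
RAB25 promoter, chr1:156060910-156061209, plus strand: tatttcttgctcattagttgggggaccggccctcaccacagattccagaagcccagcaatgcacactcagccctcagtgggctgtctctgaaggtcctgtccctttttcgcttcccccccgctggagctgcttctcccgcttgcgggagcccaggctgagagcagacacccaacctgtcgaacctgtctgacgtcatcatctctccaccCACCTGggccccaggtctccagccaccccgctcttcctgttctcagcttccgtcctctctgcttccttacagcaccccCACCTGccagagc
The printed promoter of MIR200CHG held 1 E-box, that of CLDN7 held 5 and that of RAB25 held 2. The table has another start of CLDN7, not printed, whose promoter held 0. Of 35116 promoters in the table, 20.6% held at least 1, 3.49% at least 2 and 0.635% at least 3. Of the 10 regulators, 3 had an entry in the table. ZEB1 had several entries, with 3, 1 or 0 E-boxes, while those of ZEB2 and TWIST2 held 0. The entry of CLDN4, another claudin, also held 0. Of 28 epithelial target genes described below, 15 had an entry and 11 of these held an E-box in at least 1 of their entries, some genes having several. That count is per gene and the 20.6% is per promoter, so the 2 are not comparable. No binding was measured.

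In H1993 spheroids the 4 epithelial regulators were 11.9-fold to 36.2-fold higher than in the library labelled H1993 adherent, and 5 of the 6 EMT factors were lower. Of all genes, 17.0% were called higher and 18.0% lower in that pair. In A549 the same change of culture came with 1 called gene of the 10, TWIST1, lower in spheroids. That is near the 10.3% of all genes called lower there. ESRP2, OVOL1 and GRHL2 had 0 to 4 reads in the A549 libraries, so their differences within A549 were not detectable. The summed level of the EMT factors was 18.6 TPM in H1993 spheroids, 87.7 in the library labelled H1993 adherent, 31.1 in A549 spheroids and 39.0 in A549 adherent cells. The summed level of the epithelial regulators was 300.3 TPM in H1993 spheroids, 12.3 in the library labelled H1993 adherent, 1.52 in A549 spheroids and 2.17 in A549 adherent cells. Epithelial regulators therefore made up 94.2% of the 2 sums together in H1993 spheroids, against 12.3%, 4.67% and 5.28% in the other 3 libraries in that order.

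**Figure D1:**
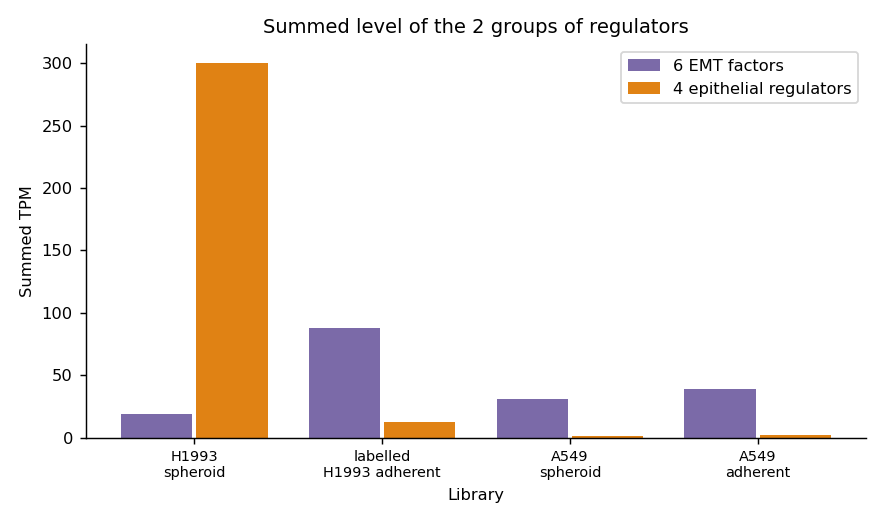
Bars give the summed TPM (y axis, from 0) of the 6 EMT factors and the 4 epithelial regulators in each of the 4 libraries (x axis, 1 library each, so no error bars). H1993 spheroids are the one library in which the epithelial regulators, at 300.3 TPM, exceed the EMT factors, at 18.6 TPM.

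Read against all genes, 4 of the 10 regulators were called higher in H1993 spheroids than in the library labelled H1993 adherent, where 17.0% of 15273 genes were called higher, and 5 were called lower, where 18.0% of genes were. In A549 spheroids against A549 adherent cells, 0 of the 10 were called higher and 1 lower, where 12.4% of genes were called higher and 10.3% lower. All 10 genes passed the filter on low counts, but ESRP2, OVOL1 and GRHL2 had at most 4 reads in each A549 library and passed through the H1993 libraries, so counts that set H1993 against A549 are a description. The median log2 fold of the 6 EMT factors was -2.18 in the H1993 pair and 0.02 in the A549 pair, and that of all genes kept was 0.00 in both. The median of the 4 epithelial regulators was 4.58 in the H1993 pair, and none is given for A549, where 3 of them had 0 to 4 reads.

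**Figure D2:**
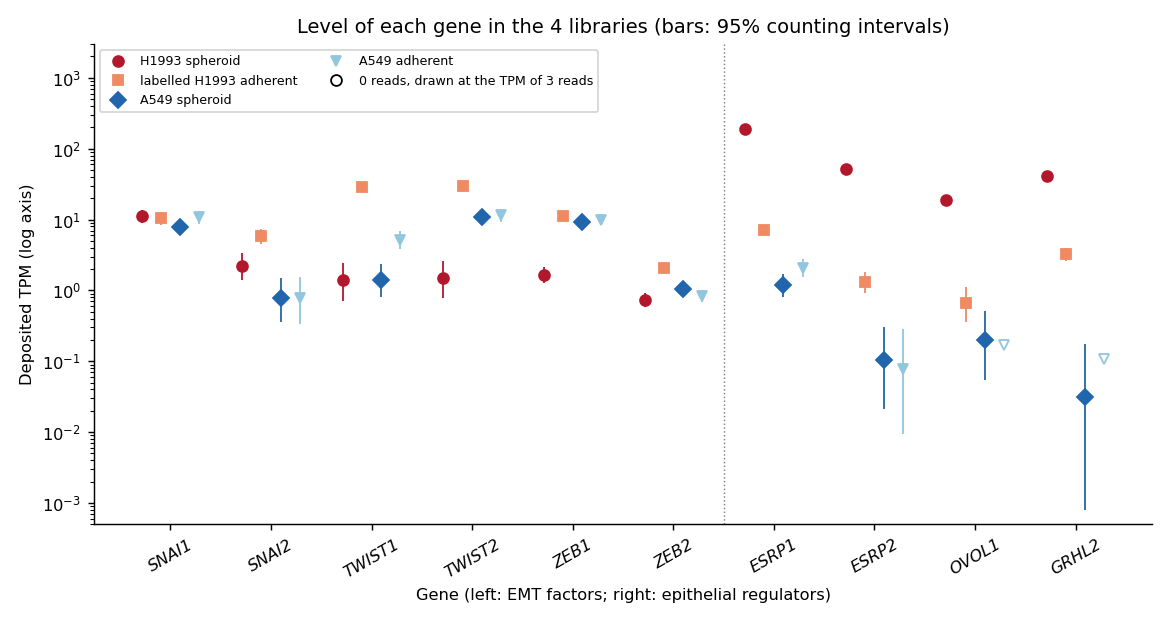
Points give the deposited TPM of each gene (y axis, log scale) in each of the 4 libraries, with exact 95% counting intervals, and open symbols mark 0 reads, drawn at the TPM that 3 reads are worth. The 4 epithelial regulators are highest in H1993 spheroids (18.7 to 188 TPM), where TWIST2 and ZEB1 are lowest (1.50 and 1.65 TPM).

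SNAI1 (Snail, chr20:49982999-49988886, plus strand, hg38) encodes a zinc finger repressor of E-cadherin. It had 80 exon reads in H1993 spheroids, 89 in the library labelled H1993 adherent, 68 in A549 spheroids and 84 in A549 adherent cells, which are 11.1, 10.4, 7.77 and 10.8 TPM. Ordered by level, no neighbouring libraries were apart beyond counting error. The log2 fold of spheroids over adherent cells was 0.03 (-0.42 to 0.48) in H1993 and -0.36 (-0.85 to 0.11) in A549. SNAI1 was the EMT factor with the highest TPM in H1993 spheroids.

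SNAI2 (Slug, chr8:48917768-48921740, minus strand), the related zinc finger repressor, had 21 reads in H1993 spheroids, 65 in the library labelled H1993 adherent, 9 in A549 spheroids and 8 in A549 adherent cells (2.23, 5.78, 0.787 and 0.789 TPM). It was called lower in H1993 spheroids than in the library labelled H1993 adherent, at -1.37 (-2.23 to -0.72), and called higher in H1993 spheroids than in A549 spheroids, at 1.17 (0.15 to 2.65). It was the only one of the 6 EMT factors called higher in that comparison of spheroids, and with intron reads included it stood at 0.99, under 2-fold, which ended the call. Both A549 libraries lay within counting error of each other.

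TWIST1 (chr7:19020991-19117672, minus strand) encodes a basic helix-loop-helix factor needed in the embryonic mesoderm and neural crest. It had 12 reads in H1993 spheroids, 297 in the library labelled H1993 adherent, 15 in A549 spheroids and 48 in A549 adherent cells (1.38, 28.7, 1.42 and 5.13 TPM). Both spheroid libraries were low and within counting error of each other, and both libraries labelled adherent were higher. Spheroids over adherent cells gave -4.25 (-5.41 to -3.62) in H1993 and -1.61 (-2.68 to -0.88) in A549. TWIST1 was the one gene of the 10 called in the same direction in both lines.

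TWIST2 (chr2:238848032-238910543, plus strand), its close relative, had 12 reads in H1993 spheroids, 283 in the library labelled H1993 adherent, 105 in A549 spheroids and 99 in A549 adherent cells (1.50, 29.6, 10.8 and 11.5 TPM). Unlike TWIST1 it was at a like level in both A549 cultures. Its log2 fold was -4.18 (-5.35 to -3.55) in H1993 and 0.02 (-0.39 to 0.43) in A549. The log2 fold in H1993 minus that in A549, computed from the TMM-scaled reads with 0.5 added to each count and so not the exact difference of the folds above, was -4.34 for TWIST2. Its counting interval, by a normal approximation, was -5.25 to -3.43, and the same difference was -2.68 for TWIST1 (-3.84 to -1.52).

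ZEB1 (chr10:31318495-31529814, plus strand), a zinc finger and homeobox repressor of epithelial and miR-200 genes, had 61 reads in H1993 spheroids, 499 in the library labelled H1993 adherent, 417 in A549 spheroids and 396 in A549 adherent cells (1.65, 11.3, 9.29 and 9.95 TPM). The low library was H1993 spheroids, and the other 3 were within 1.15-fold of each other on the scaled counts. Its log2 fold was -2.81 (-3.26 to -2.46) in H1993 and 0.01 (-0.19 to 0.21) in A549, and H1993 spheroids stood at -2.62 (-3.07 to -2.27) against A549 spheroids. The antisense transcript ZEB1-AS1, which overlaps the start of ZEB1 on the other strand, had 52, 56, 104 and 53 reads in the same order of libraries. The kit keeps strand, but whether the counting used it is not given in the sources used here, so reads in the overlap are uncertain.

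ZEB2 (chr2:144364364-144524583, minus strand), its relative, had 78 reads in H1993 spheroids, 262 in the library labelled H1993 adherent, 134 in A549 spheroids and 96 in A549 adherent cells (0.732, 2.06, 1.03 and 0.835 TPM). Its log2 fold was -1.54 (-1.95 to -1.19) in H1993, a called difference. In A549 it was 0.41 (0.03 to 0.81), which is under 2-fold. H1993 spheroids and A549 adherent cells were not apart beyond counting error.

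**Figure D3:**
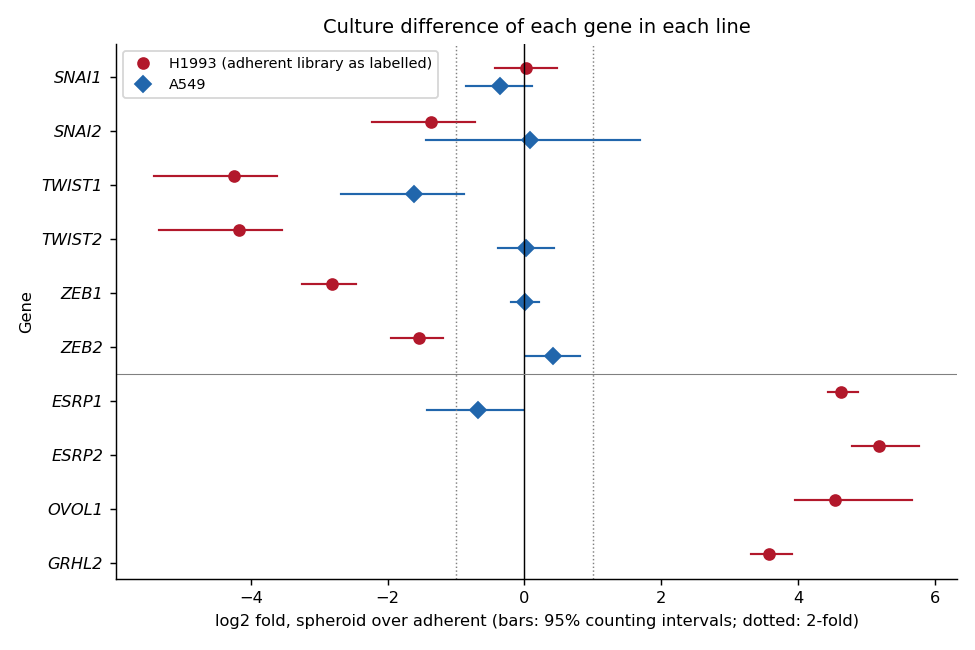
Points give the log2 fold of spheroid over adherent libraries (x axis) for each gene in H1993, with its adherent library as labelled, and in A549, with exact 95% counting intervals and dotted lines at 2-fold. In H1993 the epithelial regulators lie between 3.57 and 5.18 and the EMT factors other than SNAI1 between -4.25 and -1.37, while in A549 only TWIST1 passes 2-fold; no A549 point is drawn for ESRP2, OVOL1 and GRHL2, which had 0 to 4 reads.

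ESRP1 (chr8:94641074-94707466, plus strand), an RNA-binding protein that directs epithelial exon choice in FGFR2 and CD44, had 3908 reads in H1993 spheroids, 177 in the library labelled H1993 adherent, 30 in A549 spheroids and 47 in A549 adherent cells (188, 7.12, 1.19 and 2.10 TPM). Ordered by level, each library was apart from the next beyond counting error. The log2 fold was 4.63 (4.43 to 4.87) in H1993 and -0.67 (-1.42 to -0.02) in A549, which is under 2-fold. ESRP1 was the epithelial regulator with the most reads in A549.

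ESRP2 (chr16:68229111-68238102, minus strand), the paralog of ESRP1 with the same kind of targets, had 1245 reads in H1993 spheroids, 37 in the library labelled H1993 adherent, 3 in A549 spheroids and 2 in A549 adherent cells (52.5, 1.30, 0.104 and 0.0781 TPM). Its log2 fold in H1993, 5.18 (4.79 to 5.77), was the largest of the 10. Both A549 libraries were at or under the floor of 3 reads, so no fold is given there. The end of ESRP2 overlaps AC020978.6 on the same strand, which had 291, 11, 3 and 3 reads, and NFATC3 on the other strand, which had 528, 727, 522 and 733, in the same order of libraries. All exon reads on ESRP2 were deposited as unique.

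OVOL1 (chr11:65787022-65797219, plus strand), a zinc finger repressor of ZEB1, had 307 reads in H1993 spheroids, 13 in the library labelled H1993 adherent, 4 in A549 spheroids and 0 in A549 adherent cells (18.7, 0.662, 0.200 and 0 TPM). H1993 spheroids were high, and the library labelled H1993 adherent and A549 spheroids were not apart beyond counting error. The log2 fold in H1993 was 4.54 (3.95 to 5.67). In A549 the 95% interval of the log2 ratio, 4 reads against 0, started at -0.66 and included no change.

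GRHL2 (chr8:101492432-101669726, plus strand), a grainyhead-like activator of E-cadherin and claudin genes, had 1068 reads in H1993 spheroids, 100 in the library labelled H1993 adherent, 1 in A549 spheroids and 0 in A549 adherent cells (41.3, 3.24, 0.0318 and 0 TPM). Both libraries labelled H1993 carried it and both A549 libraries were under the floor of 3 reads, so no A549 fold is given. The log2 fold in H1993 was 3.57 (3.30 to 3.91), the smallest of the 4 epithelial regulators.

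Set against A549 spheroids, H1993 spheroids were called higher for 5 of the 10 regulators, where 18.0% of genes were, and lower for 2, where 19.1% were. This comparison shares its libraries with the culture comparisons. The log2 fold was 7.05 (6.63 to 7.71) for ESRP1 and 5.78 (5.01 to 8.26) for OVOL1. On the counts alone the log2 ratio was 8.81 for ESRP2 (7.26 to 11.09, 3 reads in A549 spheroids) and 10.18 for GRHL2 (7.70 to 15.48, 1 read). TWIST2, at -2.83 (-4.01 to -2.15), and ZEB1 were lower. TWIST1, at -0.18 (-1.43 to 0.99), was not apart, and ZEB2, at -0.65 (-1.08 to -0.25), was under 2-fold.

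Between the libraries labelled adherent, H1993 over A549, 8 of the 10 regulators were called higher and 0 lower, where 6.95% of genes were called higher and 5.49% lower. They came from both groups of regulators, 4 EMT factors and 4 epithelial regulators. SNAI2 stood at 2.63 (1.83 to 4.16), TWIST1 at 2.45 (2.06 to 2.97), TWIST2 at 1.37 and ZEB2 at 1.30, with SNAI1 at -0.04 and ZEB1 at 0.20. ESRP1 stood at 1.74 (1.31 to 2.28), and on the counts alone ESRP2 stood at 4.08 (2.13 to 7.18, 2 reads in A549 adherent cells). Against 0 reads in A549 adherent cells, the 95% interval of the log2 ratio started at 1.48 for OVOL1 (13 reads) and at 4.60 for GRHL2 (100 reads), with no upper end. With intron reads included 7 regulators were called higher, TWIST2 standing at 0.92, under 2-fold.

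The library labelled H1993 adherent held the epithelial regulators at a few percent of their level in H1993 spheroids, at 3.99% for ESRP1, 2.62% for ESRP2, 3.73% for OVOL1 and 8.24% for GRHL2. All 54 autosomal genes with at least 100 reads in H1993 spheroids and at most 3 in each A549 library, ESRP2 and GRHL2 among them, stood there at a median of 5.38% (interquartile range 3.84% to 8.16%, range 0.504% to 25.0%). That set was chosen by levels in these same data, so its share is a description. The cause of these shares was not tested. In the same library TWIST1 and TWIST2 were 5.48-fold and 2.58-fold higher than in A549 adherent cells, and both had their highest level there.

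Over both lines together, edgeR's quasi-likelihood test with line as a term and 1 residual degree of freedom called 0 of 15273 genes (0% of those tested) for culture at a Benjamini-Hochberg adjusted p under 0.05. At an unadjusted p under 0.05 it listed 1258, and DESeq2 called 591. Among the regulators other than ESRP2, OVOL1 and GRHL2, edgeR's adjusted p for culture was lowest for TWIST1, at 0.533 (log2 fold -3.09). Over all settings the adjusted p of TWIST1 ran from 0.0306 to 0.610, the low end coming from DESeq2. For line, edgeR also called 0 genes, and DESeq2 called 372. At an unadjusted p under 0.05 edgeR listed 784 of the 15273 genes for line, near the share that this threshold lists when no gene differs. ESRP1 had an adjusted p of 0.803 by edgeR (log2 fold 4.45), with a range of 0.000174 to 0.974 over the settings, the low end from DESeq2. Neither a culture test nor a line test is given for ESRP2, OVOL1 and GRHL2, which were near the floor in both A549 libraries. They passed the filter through the H1993 libraries, where they are high. The line test reads the library labelled H1993 adherent as H1993.

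Intron reads, often taken as a sign of unspliced transcripts, did not always follow the exon reads. They made up 11.6% of gene reads in H1993 spheroids, 10.7% in the library labelled H1993 adherent, 8.43% in A549 spheroids and 10.1% in A549 adherent cells. TWIST2 had 44 intron reads in A549 spheroids and 147 in A549 adherent cells, a log2 fold of -1.76 (-2.32 to -1.31), while its exon reads gave 0.02. The intronic share of its gene reads was 29.5% (22.3% to 37.5%) in A549 spheroids and 59.8% (53.3% to 65.9%) in A549 adherent cells. ZEB1 showed the same order, with 85 intron reads in A549 spheroids and 151 in A549 adherent cells, or -0.88 (-1.29 to -0.50) on the log2 scale. SNAI1 had 5 intron reads in H1993 spheroids and 46 in the library labelled H1993 adherent, at -2.62 (-4.71 to -1.69), while its exon reads gave 0.03.

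For other genes of the H1993 pair, intron and exon reads pointed the same way. TWIST2 stood at -4.13 (-5.44 to -3.46) on 10 against 234 intron reads and ZEB1 at -2.63 (-3.32 to -2.14) on 29 against 215. GRHL2 stood at 3.46 (3.10 to 3.95) on 533 against 53, and its intronic share was 33.3% in H1993 spheroids and 34.6% in the library labelled H1993 adherent. ESRP1 stood at 3.74 (3.39 to 4.24) on 637 against 52 intron reads. In all 4 epithelial regulators the intron fold was below the exon fold, with ESRP2 at 2.91 (2.08 to 4.81) on 52 against 6. OVOL1 stood at 2.99 (1.86 to 9.88) on 20 against 1. For OVOL1 and GRHL2 the intron interval held the exon fold. The prior count of 2 draws folds on few reads toward no change.

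**Figure D4:**
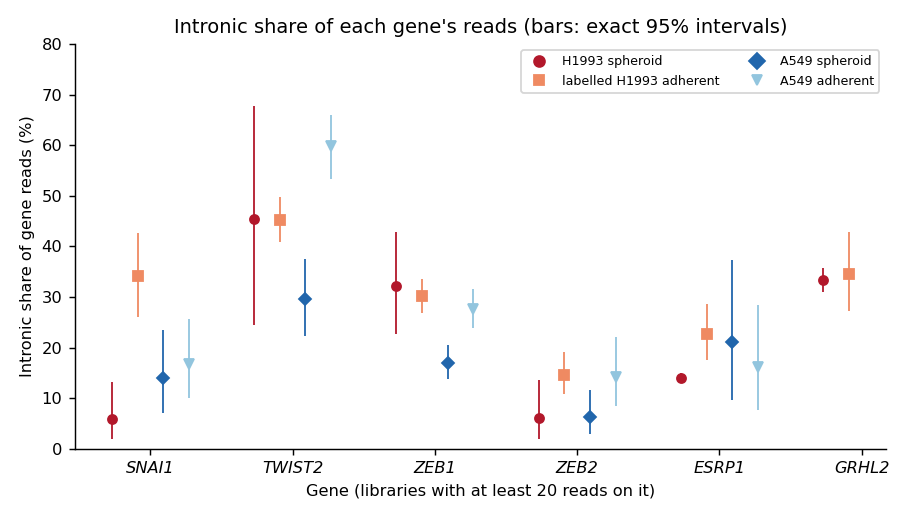
Points give the intronic share of each gene's reads (y axis, percent, from 0) in each library with at least 20 reads on the gene, with exact 95% binomial intervals. TWIST2 is at 29.5% in A549 spheroids and 59.8% in A549 adherent cells, and SNAI1 at 5.88% in H1993 spheroids and 34.1% in the library labelled H1993 adherent, while GRHL2 is near 33.3% in H1993 spheroids and 34.6% in the library labelled H1993 adherent.

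The epithelial genes that these factors repress or activate were counted over 28 genes of junctions, polarity and keratins, all kept by the filter. In the H1993 pair 25 were called higher in spheroids and 0 lower, where 17.0% and 18.0% of all genes were. Their median log2 fold was 2.91. In the A549 pair 8 were higher and 3 lower, where 12.4% and 10.3% of all genes were. The median there was 0.35 over the 25 with at least 10 reads. PRSS8, a membrane serine protease, had 753 reads in H1993 spheroids and 12 in the library labelled H1993 adherent (5.92). MAP7, a microtubule-binding protein, was lowest at -0.37. In A549, CLDN4 was highest with 460 reads in spheroids and 58 in adherent cells (2.88), and AP1M2, a basolateral sorting adaptor, lowest with 106 and 303 (-1.56). CDH1 (E-cadherin), chosen after its values were seen, had 3344 reads in H1993 spheroids, 1765 in the library labelled H1993 adherent, 1487 in A549 spheroids and 1642 in A549 adherent cells. Its log2 fold was 1.10 (called) in H1993 and -0.21 in A549, both below the medians of the list. H1993 spheroids against A549 spheroids, a ratio without the library labelled H1993 adherent, had 21 of the 28 called higher and 0 lower. Of all genes, 18.0% were called higher there and 19.1% lower. The median of the list was 2.25.

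Of 25 mesenchymal target genes, 23 were kept. In the H1993 pair 2 were called higher in spheroids and 15 lower, where 17.0% and 18.0% of all genes were. The median was -1.82 over the 23 with at least 10 reads. In the A549 pair 7 were higher and 6 lower, where 12.4% and 10.3% of all genes were. The median there was 0.68 over 22 genes. COL5A1, a fibrillar collagen chain, was lower in spheroids of both lines, with 245 reads in H1993 spheroids and 2335 in the library labelled H1993 adherent (-3.06), while A549 spheroids had 393 and A549 adherent cells 2274 (-2.59). LUM (lumican), a matrix proteoglycan, was at -3.03 in H1993 and 3.57 in A549. COL6A1, at 1.95, and COL1A1, at 1.23, were the 2 called higher in H1993. VIM (vimentin), also chosen after its values were seen, had 1456 reads in H1993 spheroids, 10111 in the library labelled H1993 adherent, 16867 in A549 spheroids and 8449 in A549 adherent cells. Of the same list, 4 genes were called higher and 13 lower in H1993 spheroids than in A549 spheroids, with a median of -1.62. The shares of all genes there were 18.0% higher and 19.1% lower.

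**Figure D5:**
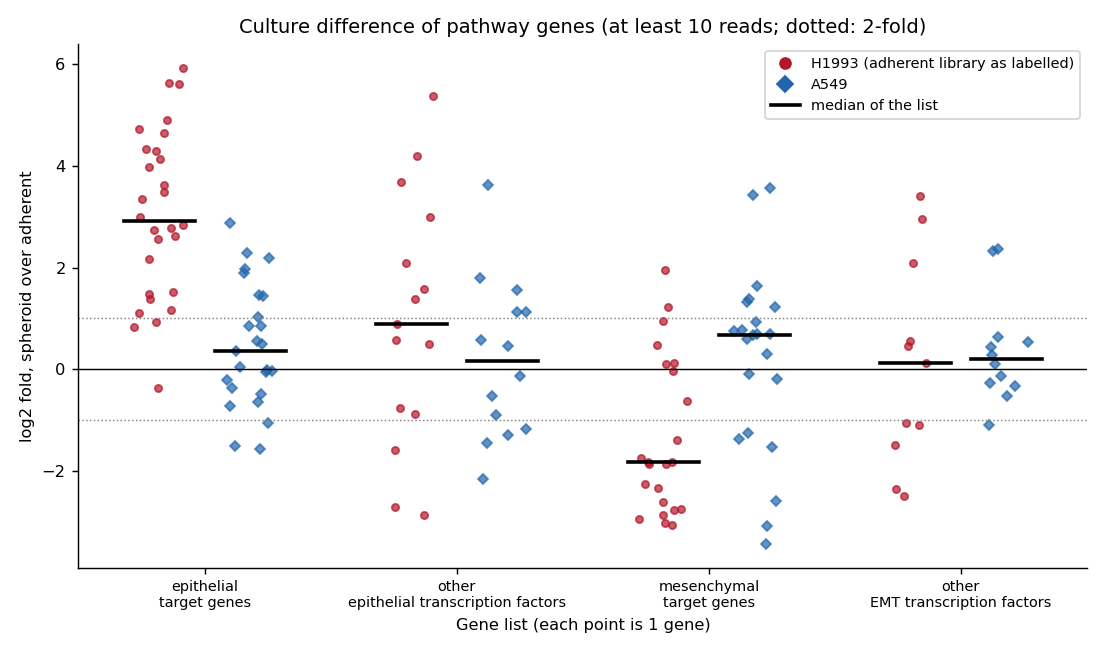
Each point is the log2 fold of spheroid over adherent libraries (y axis) of 1 gene of a list (x axis) that reached 10 reads in either library, for H1993 (its adherent library as labelled) and A549, with black bars at the medians. The medians are 2.91 and 0.35 for epithelial target genes, 0.90 and 0.16 for other epithelial transcription factors, -1.82 and 0.68 for mesenchymal target genes and 0.12 and 0.20 for other EMT transcription factors, H1993 before A549.

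Other transcription factors of the same pathways went both ways. Of 14 other epithelial factors kept, 6 were called higher and 3 lower in the H1993 pair, and 5 higher and 4 lower in the A549 pair. Among all genes, 17.0% were called higher and 18.0% lower in the H1993 pair, and 12.4% and 10.3% in the A549 pair. Over the members with at least 10 reads in either library the median was 0.90 in H1993 (15 genes) and 0.16 in A549 (14 genes). TP63, a factor of basal epithelial cells, had 440 reads in A549 spheroids and 120 in A549 adherent cells (1.79). KLF4 was at 4.19 in H1993, while FOXA2, a lung and endoderm factor, was at -2.86. GRHL1, a relative of GRHL2, had 293 reads in H1993 spheroids and 40 in the library labelled H1993 adherent (2.99), while A549 spheroids had 9 and A549 adherent cells 22 (-1.18). GRHL3, the other relative, stood at -0.77 in H1993 and 0.46 in A549, both under 2-fold.

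Of 11 other EMT transcription factors kept, 2 were called higher and 5 lower in the H1993 pair, and 1 higher and 1 lower in the A549 pair. The shares of all genes were 17.0% higher and 18.0% lower in the H1993 pair, and 12.4% and 10.3% in the A549 pair. Over the members with at least 10 reads in either library the median was 0.12 in H1993 (11 genes) and 0.20 in A549 (12 genes). HMGA2, a chromatin protein that induces SNAI1 and TWIST1, was higher in spheroids of both lines, with 197 reads in H1993 spheroids and 51 in the library labelled H1993 adherent (2.09), while A549 spheroids had 1780 and A549 adherent cells 340 (2.32). PRRX2 was at 3.41 in H1993. TCF4, a partner of TWIST proteins, was at -2.49 and SOX4 at -2.35 in H1993.

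Among 10 splicing regulators other than the ESRP genes, 0 were called higher and 1 lower in the H1993 pair (median 0.03), and 0 higher and 4 lower in the A549 pair (median -0.62). The one called lower in H1993 was RBM24, with 13 reads in H1993 spheroids and 396 in the library labelled H1993 adherent (-4.56), and it was also lower in A549 spheroids, with 163 reads against 437 in A549 adherent cells (-1.47). RBM47, another splicing regulator of epithelia, stood at 0.14 in A549. Of 10 genes whose exons ESRP proteins splice, 2 were called higher and 0 lower in H1993, and 1 higher and 2 lower in A549. For both of these lists, the shares of all genes were 17.0% higher and 18.0% lower in H1993, and 12.4% and 10.3% in A549. CD44, whose variant exons ESRP1 retains, had 4351 reads in H1993 spheroids and 7389 in the library labelled H1993 adherent (-0.58), while A549 spheroids had 22074 and A549 adherent cells 9003 (1.23). These gene counts do not show which exons were used.

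Likeness between genes was measured as the Euclidean distance of their centred log2 CPM over the 4 libraries, among 12406 genes with at least 100 reads in 1 library. SNAI1 and SNAI2 had under 100 reads in every library and were left out. Among the regulators, TWIST2 and ZEB1 were closest (distance 1.08), followed by ESRP1 and ESRP2 (1.46) and by ESRP1 and OVOL1 (1.59). The nearest genes of TWIST1 were DIRAS3 (a Ras-related GTPase), ITGBL1 and ADRA1D (an adrenergic receptor), at 0.365 to 0.529. Those of TWIST2 were NRP1 (neuropilin, a semaphorin and VEGF co-receptor), FAM19A5 and P4HA3 (a collagen prolyl hydroxylase subunit). Those of ZEB1 were ZNF264, FAM230C and GSTO1 (a glutathione transferase), and those of ZEB2 were PPEF1, PLD1 (a phospholipase) and TTLL3 (a tubulin-modifying enzyme).

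Of the epithelial regulators, ESRP1 was nearest to TDRD9, WASF3 (an actin regulator) and AC009065.2, and ESRP2 to MAL2 (an apical transport protein), SLC6A11 (a GABA transporter) and RNF223. OVOL1 was nearest to SMIM22, AASS (an enzyme of lysine breakdown) and PROM2 (a membrane protein of epithelial protrusions), and GRHL2 to TMTC1, RAB25 and STEAP4 (a metalloreductase). MAL2 had 9831 reads in H1993 spheroids, 371 in the library labelled H1993 adherent, 35 in A549 spheroids and 35 in A549 adherent cells. RAB25 had 1209, 68, 0 and 0 reads in the same order. With 4 libraries many genes have like patterns, and no distance was tested.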

How the data were processed

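Per the labels' protocols, 1 library per sample was made from total RNA by a TruSeq stranded mRNA kit with PCR, and groups follow the line and culture in the labels. The build is hg38, per the submitters' processing notes. Which aligner and counter were used, and whether counting used strand, is not given in the sources used here. Per the file headers, the authors deposited whole-number counts of exon, intron and gene reads per gene, and TPM and RPKM values. Exon lengths and total exon counts gave the deposited TPM again for every regulator. RPKM, as deposited by the authors, entered no comparison.

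Total exon counts were scaled by TMM (edgeR 4.0.16 in R 4.3.3) over all 4 libraries, and filterByExpr kept 15273 genes. Log2 folds use a prior count of 2, and ratios have exact Clopper-Pearson 95% intervals. A kept gene was called at 2-fold or more with an interval that excludes no change. Culture and line were also tested over all 4 libraries with edgeR's quasi-likelihood test (terms line and culture, Benjamini-Hochberg adjustment), with DESeq2 1.42.0 as an alternative. The line, shared by an adherent and a spheroid library, is the pairing. Since the labels name no separate cultures, p-values there measure only the spread between these libraries. The fits were checked on simulated counts, but these had less spread than the common dispersion of 0.233 fitted here. That check therefore does not show how the test performs at the spread of these data.

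The regulators, the gene lists and the tests were chosen with earlier results of these data known. Named genes are the 10 regulators, of each list the 2 highest and 2 lowest folds in a culture pair among genes with at least 100 reads in 1 of its libraries, and the 3 nearest genes of each regulator. A few genes chosen by it are left out of the text. Other settings tried were other scaling, no filter on low counts, a prior of 0.5, unique reads, reads including introns, mitochondrial genes left out, deposited TPM (pseudocount 0.1), DESeq2, no block and each library left out. Scaling without the library labelled H1993 adherent was added after seeing the data.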

Additional observations from a re-analysis of the deposited data

Results flagged for a closer look

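Spheroids over adherent cells went opposite ways in the 2 lines for ZEB2 and for ESRP1. ZEB2 had a log2 fold of -1.54 in H1993 and 0.41 (0.03 to 0.81) in A549. ESRP1 had 4.63 in H1993 and -0.67 (-1.42 to -0.02) in A549. Both A549 folds were under 2-fold and not called. Intron reads in A549 gave -0.76 (-2.25 to 0.37) for ZEB2 and -0.19 (-1.81 to 1.31) for ESRP1, both intervals including no change. Each line had 1 library per culture, so the difference between the lines was not tested against replicates. By counting error alone, the fold in H1993 minus the fold in A549 was -1.97 (-2.50 to -1.45) for ZEB2 and 5.35 (4.66 to 6.04) for ESRP1. The H1993 values rest on the library labelled H1993 adherent.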

How the results depend on the processing

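Under the alternatives tried, 149 of the recomputed counts of genes or regulators stayed within 1.5 times their value and 5 did not. With the fold of deposited TPM alone, 1 regulator (OVOL1) counted as higher in A549 spheroids, against 0. Over both lines, edgeR's 0 genes for culture became 173 with no filter on low counts and 591 with DESeq2, and the 0 for line became 190 and 372. Without the replicate block (line or culture left out) both counts stayed at 0, and the line fold of TWIST2 turned to 0.44, against -0.70. With introns included, the log2 fold was -0.75 for TWIST2 in A549, -0.48 for SNAI1 in H1993 and 0.92 for TWIST2 between the libraries labelled adherent. That ended the call of TWIST2 there (7 regulators higher, against 8) and the call of SNAI2 between spheroids, at 0.99 (4 higher, against 5). Scaling by library size alone moved the median of all genes by -0.11 in the A549 pair. Scaling without the library labelled H1993 adherent changed no direction or call of a regulator.

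Leaving out 1 library makes the fit over both lines equal to 1 pair, a value with no test. The culture fold then ran from -0.36 to 0.029 for SNAI1, -1.37 to 0.086 for SNAI2, -4.18 to 0.021 for TWIST2, -2.81 to 0.011 for ZEB1, -1.54 to 0.41 for ZEB2 and -0.67 to 4.63 for ESRP1. The line fold ran from -0.045 to 0.34 for SNAI1, -0.18 to 2.45 for TWIST1, -2.83 to 1.37 for TWIST2, -2.62 to 0.20 for ZEB1 and -0.65 to 1.30 for ZEB2. The causes were not tested. At this depth, differences of SNAI2, OVOL1, ESRP2 and GRHL2 within A549, at 0 to 9 reads, were not detectable.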

Other observations

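Partners of the EMT factors are given beside the shares of all genes. These shares were 17.0% called higher and 18.0% lower in the H1993 pair, and 12.4% and 10.3% in the A549 pair. Of 16 corepressors and chromatin partners, 1 was called higher and 2 lower in the H1993 pair (median log2 fold -0.08), and 0 higher and 3 lower in the A549 pair (median -0.45). EZH2, the histone methyltransferase of Polycomb, had 123 reads in A549 spheroids and 774 in A549 adherent cells (-2.70), and DNMT1, the maintenance DNA methyltransferase, had 453 and 1926 (-2.15). SMARCA4, a chromatin remodelling ATPase, had 2077 reads in H1993 spheroids, 491 in the library labelled H1993 adherent, 236 in A549 spheroids and 271 in A549 adherent cells, and was the one corepressor called higher in the H1993 pair (2.26).

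Of 12 kinases and ubiquitin ligases that act on EMT factors, 2 were called higher and 2 lower in the H1993 pair, and 0 higher and 1 lower in the A549 pair. For this list and the next, the shares of all genes were 17.0% and 18.0% in the H1993 pair and 12.4% and 10.3% in the A549 pair. LATS2, a Hippo pathway kinase, was at 2.27 in H1993 (2350 reads in spheroids and 552 in the library labelled H1993 adherent) and at -1.11 in A549 (200 reads in spheroids and 416 in adherent cells). PRKD1 was at -3.23 in H1993. Of 16 TGF-beta ligands, receptors and SMAD genes, 3 were called higher and 5 lower in H1993 and 2 higher and 3 lower in A549. TGFBI, a matrix protein induced by TGF-beta, was at -3.76 in H1993. SMAD2 was at 1.83 in H1993, and SMAD3 was at -2.32 in A549.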
